A study of Mus musculus with 2 samples.

Results

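Genes for 9 lipases, lipase inhibitors and proteins that build or remodel high-density lipoprotein (HDL) were examined in mouse liver: Lpl, Lipc, Lipg, Angptl4, Angptl8, Scarb1, Abca1, Pltp and Lcat. A probe set was counted as a member when the platform annotation gave it one of these 9 names and no other. This rule found 17 probe sets for 8 of the genes, out of 18193 genes that could be named in this way. Lipc, which encodes hepatic lipase, had no probe set with its name alone and is not reported here. Liver RNA was hybridised to 1 Affymetrix array for Bglu3 congenic mice and 1 array for C57BL/6 apoE-/- control mice. Bglu3 names a blood glucose locus of chromosome 1, and in congenic mice a stretch of chromosome from a donor strain replaces that of the background strain. Per the labels, all animals went onto chow at weaning at 3 weeks, began a Western diet when 6 weeks old and ate it for 12 weeks, both groups are marked as hyperglycemic, and both carry C57BL/6 as a strain label. The sources used here do not give the donor strain, the ends of the segment, the apoE genotype of the congenic mice, or the number and sex of the mice behind each array.

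Lipoproteins carry triglyceride and cholesterol through the blood. Lipoprotein lipase frees fatty acids from their triglyceride at the wall of capillaries, endothelial lipase acts mainly on phospholipid of HDL, and secreted angiopoietin-like proteins restrain these enzymes. HDL forms when the transporter Abca1 exports cholesterol and phospholipid to apolipoprotein A-I, matures as Lcat esterifies the cholesterol and Pltp transfers phospholipid onto it, and unloads in the liver at the receptor Scarb1. Hepatocytes of the adult liver are known to make little lipoprotein lipase, whereas macrophages make it readily.

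With 1 array per group nothing measures the spread between mice, so no test was possible and every difference below describes these 2 arrays. Values are linear intensities as deposited, and a difference is log2(intensity + 5) on the congenic array minus the same on the control array. This scale understates differences of dim probe sets. A gene was represented by its brightest probe set, and a fixed size of 1.5-fold, which is 0.585 on the log2 scale, took the place of a threshold. Beyond this size, 8.78% of all genes read higher on the congenic array and 8.06% lower, and among the brightest 4548 genes, those with a mean intensity of at least 234, 3.52% were higher and 2.53% lower. As a yardstick of technical disagreement, probe sets of the same gene had log2 differences that spread with an SD of 0.34, and of 0.24 for the brightest genes with several probe sets. This SD is no measure of variation between mice.

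Lpl and Pltp had the highest intensities relative to control, Angptl8 the lowest, and the brightest probe sets of Abca1 and Scarb1 were nearly equal on both arrays. Of the 8 genes, 1 was higher by 1.5-fold or more (Lpl), 1 was lower (Angptl8) and 6 lay within 1.5-fold. None reached 2-fold, a size past which 2.18% of all genes were higher and 2.06% lower. A count of 1 is the smallest above 0 that 8 genes can give, so neither count is read as a result about the group. The median difference of the 8 genes was 0.04, against 0.03 over all genes and 0.04 among the brightest 4548. All 8 stood above the median intensity of both arrays, 7 of them among the brightest 4548 genes. None of the 8 genes lies on chromosome 1 in the RefSeq gene table of assembly GRCm38.p6, which places Lpl and Lcat on chromosome 8 and Angptl8 on chromosome 9.

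**Figure D1:**
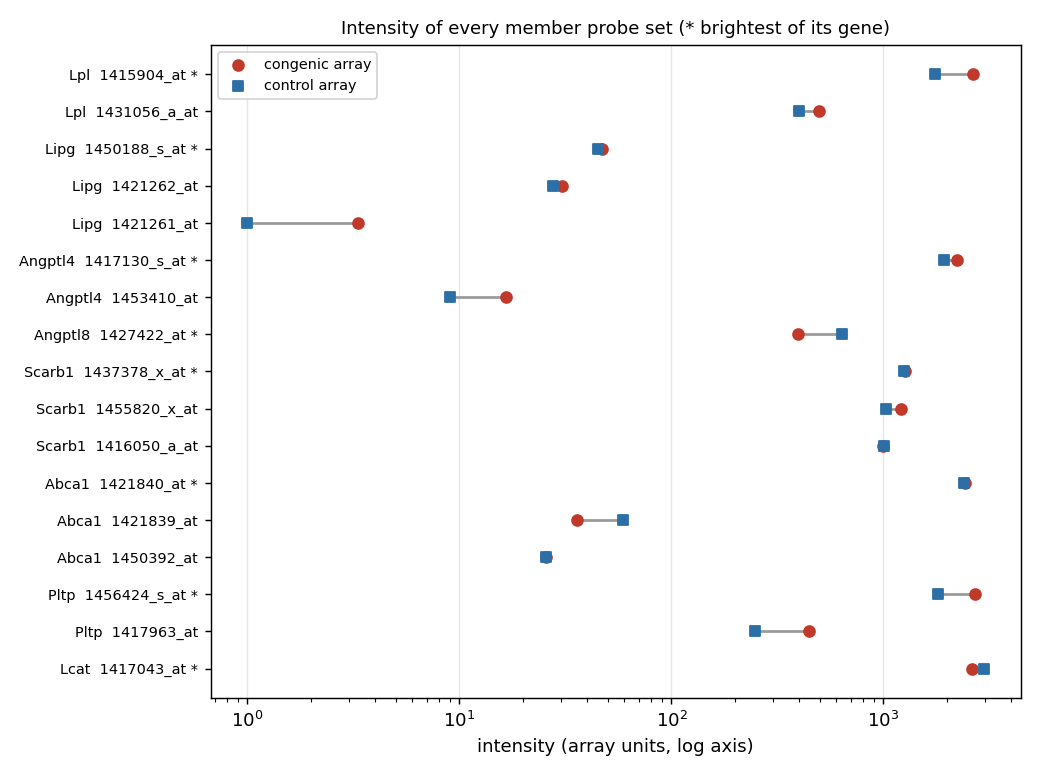
Intensity of each of the 17 member probe sets on the congenic array (circles) and the control array (squares), on a log axis, with a line joining the 2 values and a star on the brightest probe set of each gene. Both probe sets of Lpl and of Pltp are higher on the congenic array, the probe set of Angptl8 is lower, and the brightest probe set of Abca1 reads 2429 against 2397.

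Lpl encodes lipoprotein lipase. Its brightest probe set read 2643 in congenic liver and 1744 in control liver. The congenic value was 1.51-fold higher, a log2 difference of 0.60, and 149 of the brightest 4548 genes (3.28%) were higher by at least as much. The other Lpl probe set, of the class that reads alternative transcripts of a gene, stood at 499 against 398 (log2 difference 0.32). Both were higher on the congenic array, the dimmer one by less than 1.5-fold. On the same array 7 of 12 macrophage markers were higher by 1.5-fold or more, against 8.78% of all genes. Their median log2 difference was 0.81. Summed intensities stood in a ratio of 1.46 for macrophage, 3.28 for neutrophil and 1.94 for stellate cell markers, whose sums came mostly from Rgs5. The ratio was 1.08 for lipid-laden macrophage, 1.11 for endothelial, 1.02 for hepatocyte and 1.08 for pancreatic acinar markers. For adipocyte, muscle and steroidogenic markers it was 0.77, 0.91 and 0.83. The part of any of these cell types in the values of Lpl and Pltp was not tested. In whole liver RNA, more cells of a type and more RNA per cell cannot be told apart.

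Lipg encodes endothelial lipase, whose main substrate is HDL phospholipid. Its brightest probe set read 47.2 in congenic liver and 44.9 in control liver, a log2 difference of 0.07. A second probe set stood at 30.4 against 27.7 (log2 difference 0.11). These 2 probe sets differed by less than the disagreement between probe sets of a gene. The remaining Lipg probe set was at 3.32 against 1, below the median of both arrays, and 1 is a value that recurs in 3.62% of the probe sets of the control array, so its log2 difference of 0.47 rests on a repeated low value.

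Of the 2 inhibitors measured here, Angptl8 was lower past 1.5-fold and Angptl4 stayed within 1.5-fold by its brightest probe set. Angptl8 is made by liver and fat after feeding and restrains lipoprotein lipase. Its single probe set read 396 in congenic liver and 638 in control liver. The control value was 1.60-fold higher, a log2 difference of -0.68, and 79 of the brightest 4548 genes (1.74%) were lower by at least as much. Angptl4, an inhibitor of lipoprotein lipase that fasting and fatty acids induce, read 2228 in congenic liver and 1921 in control liver by its brightest probe set. The log2 difference of 0.21 was within the disagreement between probe sets of bright genes. A second Angptl4 probe set lay below the median of both arrays, at 16.6 against 9.03 (log2 difference 0.62).

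Pltp encodes phospholipid transfer protein, which moves phospholipid from triglyceride-rich particles onto HDL. Its brightest probe set read 2697 in congenic liver and 1807 in control liver. The fold of 1.49 (log2 difference 0.58) fell just short of 1.5-fold, while Lpl at 1.51-fold lay just inside. The other Pltp probe set stood at 444 against 249, 1.77-fold higher on the congenic array with a log2 difference of 0.83. Among the brightest 4548 genes, 165 (3.63%) were higher by at least as much as the brightest Pltp probe set. Lcat encodes lecithin-cholesterol acyltransferase, which esterifies cholesterol on HDL. Its single probe set read 2622 in congenic liver and 2968 in control liver, a log2 difference of -0.18, and 798 of the brightest 4548 genes were lower by at least that much.

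Abca1 and Scarb1 stand at the start and the end of the path of HDL cholesterol. The brightest Abca1 probe set read 2429 in congenic liver and 2397 in control liver (log2 difference 0.02). Another gave 25.6 on both arrays (log2 difference 0.0014), and the remaining one 35.8 against 59.3 (log2 difference -0.66). The first pair showed near equality at very different brightness, and the lower reading came from a probe set that also stood above the median of both arrays. For Scarb1, the probe sets read 1257 against 1255, 1215 against 1023 and 994 against 1009 in congenic against control, with log2 differences of 0.0029, 0.25 and -0.02. The brightest pair of these probe sets belongs to the class that may cross-hybridise with other transcripts. Of the 6 members with several probe sets, 4 (Lpl, Lipg, Angptl4 and Pltp) were higher on the congenic array by every probe set, and Abca1 and Scarb1 were split. How often the probe sets of a gene share a direction was not counted over all genes.

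Across all 17 probe sets, 13 were higher on the congenic array at any size and 4 lower. Past 1.5-fold, 3 were higher, 1 each of Lpl, Pltp and Angptl4, and 2 were lower, 1 each of Angptl8 and Abca1. Over all probe sets with 1 gene name, 8.86% were higher and 9.1% lower by that size. Probe sets of one gene read the same RNA, so these are not independent counts. The shares at any size were not counted over all probe sets, so 13 against 4 is not read as a result about the group.

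**Figure D2:**
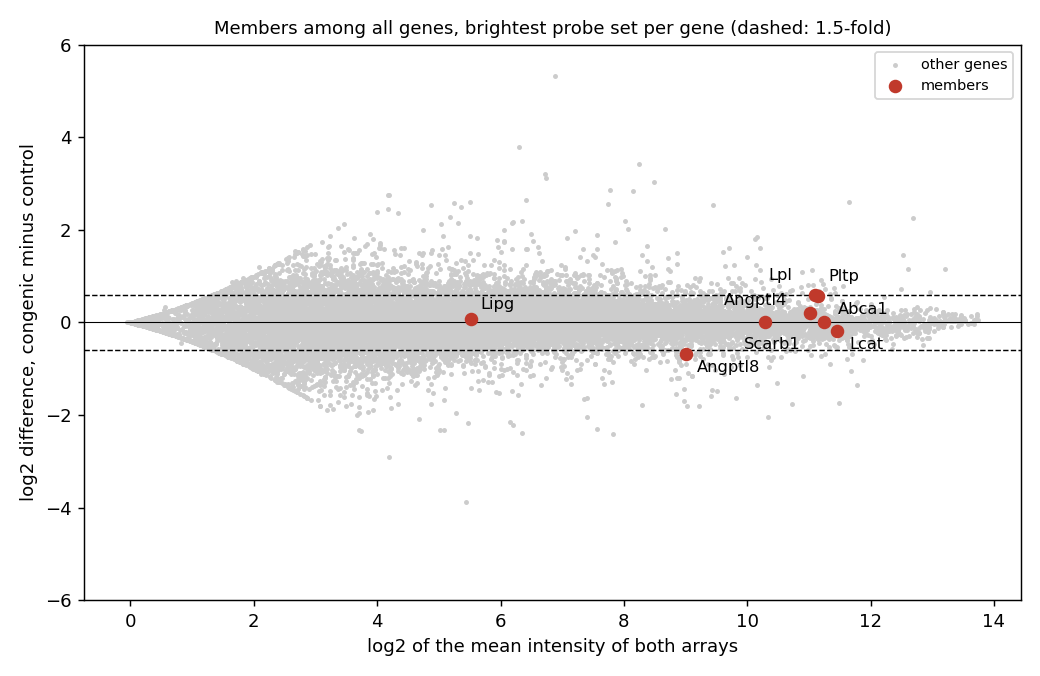
Log2 difference, congenic minus control, against the log2 of the mean intensity for 18193 genes (grey) and the 8 members (red), each by its brightest probe set, with dashed lines at 1.5-fold. Lpl (0.60) and Pltp (0.58) lie at the upper line, Angptl8 (-0.68) lies below the lower line, and Lipg is the one member of low brightness.

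The sequence upstream of the start is shown for 3 of the genes: Pltp, which was higher on the congenic array, Angptl8, which was lower, and Abca1, which like Pltp is a known target of the liver X receptors (LXR) and whose brightest probe set read nearly equally on both arrays, while another was lower on the congenic array. LXR are nuclear receptors that sense oxysterols and bind paired half-sites as partners of the retinoid X receptor. The windows are the 250 bases before the RefSeq start in GRCm38.p6, on the strand of the gene, at chr2:164857709-164857958 (minus strand) for Pltp, chr9:21835260-21835509 (plus strand) for Angptl8 and chr4:53159896-53160145 (minus strand) for Abca1. Capitals mark matches on either strand to a nuclear receptor half-site (AGGTCA), its direct repeat with a spacing of 4 bases (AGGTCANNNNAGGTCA), a loose form of that repeat (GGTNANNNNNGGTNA), an E-box (CACGTG), a sterol regulatory element (TCACNCCAC), a GC-box (GGGCGG) and a TATA box (TATAAA). The strict repeat holds the half-site and the loose form within it, and no marked match in these windows overlaps another.
Pltp: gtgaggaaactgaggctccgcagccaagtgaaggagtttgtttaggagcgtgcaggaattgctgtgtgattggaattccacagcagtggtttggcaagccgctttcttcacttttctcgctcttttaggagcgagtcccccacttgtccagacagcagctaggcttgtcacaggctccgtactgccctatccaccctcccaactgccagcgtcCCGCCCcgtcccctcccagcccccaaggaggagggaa
Angptl8: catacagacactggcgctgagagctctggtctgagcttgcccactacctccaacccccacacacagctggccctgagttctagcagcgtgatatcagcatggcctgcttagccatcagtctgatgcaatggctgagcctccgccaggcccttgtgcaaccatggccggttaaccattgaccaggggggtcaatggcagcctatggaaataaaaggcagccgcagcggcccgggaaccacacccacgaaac
Abca1: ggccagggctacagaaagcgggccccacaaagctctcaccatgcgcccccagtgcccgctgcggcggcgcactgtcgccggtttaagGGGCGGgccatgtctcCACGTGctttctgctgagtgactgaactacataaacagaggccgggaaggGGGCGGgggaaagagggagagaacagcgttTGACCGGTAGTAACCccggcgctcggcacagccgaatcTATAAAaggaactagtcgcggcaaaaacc

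The Abca1 window held the loose repeat on the opposite strand (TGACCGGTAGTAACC) at positions -67 to -53 from the start, a form that 0.621% of 32851 mouse promoter windows of this length hold. The strict repeat, which 0.0152% of windows hold, was absent from the Abca1 window. LXR are known to act on Abca1 through a repeat of this spacing close to its start, so the loose match adds no separate evidence. The same window held an E-box, which 6.02% of all windows hold, 2 GC-boxes (32.7%) and a TATA box at -29 to -24 (12.4%). The Pltp window held 1 GC-box and the Angptl8 window held none of these letters. Matches are a description of the letters, and their absence says nothing about binding elsewhere.

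Other genes of the pathway were counted from lists of lipase relatives, lipase maturation, apolipoprotein cofactors, HDL and cholesterol export, lipoprotein receptors, nuclear receptors, LXR targets and targets of the peroxisome proliferator-activated receptors (PPAR). Together the lists named 85 genes outside the members, of which 71 had a probe set with 1 name and 69 of these a mean at or above the median of all probe sets. Of the 69, 3 were higher by 1.5-fold or more (Apoe, Fgf21 and Lipe) and 1 was lower (Ppara), which is 4.35% and 1.45%, against 6.73% and 4.29% of all genes above the same level. The median difference of the 69 was -0.03, against 0.04 for all such genes. Apoe is counted among the 3 although the control mice carry apoE-/- alleles.

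Among relatives of the secreted lipases and intracellular lipases, 1 of 9 was higher and 0 were lower. Lipe, the hormone-sensitive lipase, read 49.4 against 30.1 (log2 difference 0.63), with its other probe set at 0.32. Lipa, the lysosomal acid lipase, read 2509 against 2192 (0.19). At the other end, Mgll, which splits monoglycerides, read 1327 against 1785 (log2 difference -0.43), and the adipose triglyceride lipase Pnpla2 610 against 752 (-0.30), with its other probe set at 0.56. Genes for lipase folding, anchoring and cleavage had none of 11 past 1.5-fold and a median difference of -0.12. Lmf2, related to the lipase maturation factor Lmf1, differed by 0.28, Angptl6 by 0.25, and Pcsk6, a proprotein convertase, by -0.51 (324 against 465). Pcsk5, a related convertase, differed by -0.25, with its 5 probe sets between -1.01 and 0.36. Gpihbp1, named here for its role, holds lipoprotein lipase at the capillary wall and read 738 against 731 (log2 difference 0.01).

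Apolipoproteins that assist or hinder the lipases and Lcat had 1 of 9 genes higher. Apoe, which carries the apoE-/- alleles of the control mice, read 229 in congenic liver and 118 in control liver, a log2 difference of 0.93. Both readings lay far below those of the other apolipoproteins of this list. These ranged from 3937 (Apoa4) to 13964 (Apoa1) in congenic liver and from 4162 to 13395 for the same genes in control liver. Whether the Apoe probe set falls inside the disrupted part of the gene is not known here, so its value does not check the genotype. Apoa5, which promotes lipolysis, differed by 0.27 (7799 against 6481), while Apoc2, the required cofactor of lipoprotein lipase, differed by -0.22 (6554 against 7638) and Apoc4 by -0.11. For genes of the HDL particle and cholesterol export, none of 13 passed 1.5-fold. The transporter gene Abca7 (log2 difference 0.55, dim at 31.1 against 19.6) and Nceh1, a cholesteryl ester hydrolase of macrophages (0.44), were highest. Abcg8 (-0.50, 435 against 616) and Abcg5 (-0.36, 1229 against 1579), which together export sterol into bile, were lowest.

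Lipoprotein receptors and their regulator had none of 5 past 1.5-fold. Mylip, which marks the low-density lipoprotein receptor for degradation, differed by 0.46 (876 against 634). Lrp1, a receptor for remnant particles, differed by 0.34, with its other probe set at 0.02. Cd36 differed by -0.10 and Vldlr by -0.25, with other Vldlr probe sets down to -1.17. Among nuclear receptors and sterol factors, 0 of 12 were higher and 1 was lower. Ppara, the receptor that governs fatty acid oxidation, read 882 against 1373 (log2 difference -0.63, with all 3 probe sets between -0.63 and -0.45), and Nr0b2, a repressor induced by bile acids, 484 against 720 (-0.57). Srebf2, a factor of cholesterol synthesis, differed by 0.42, with its other probe set at -0.21, and Rxrb by 0.36.

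LXR targets outside the members had none of 9 past 1.5-fold and a median difference of -0.09. Besides Mylip, Scd2 was at 0.32, with probe sets down to -0.45, and the lowest were Abcg8 and Srebf1, a lipogenic factor, at 562 against 782 (log2 difference -0.47). PPAR targets had 1 of 9 higher and 0 lower. Fgf21, a hormone of the fasting liver, read 135 against 71.6 (log2 difference 0.87), Pdk4, which restrains glucose oxidation, 259 against 179 (0.52), Ehhadh differed by -0.10 and Vnn1 by -0.17. Angptl4, itself a PPAR target, at 0.21 lay between these values.

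**Figure D3:**
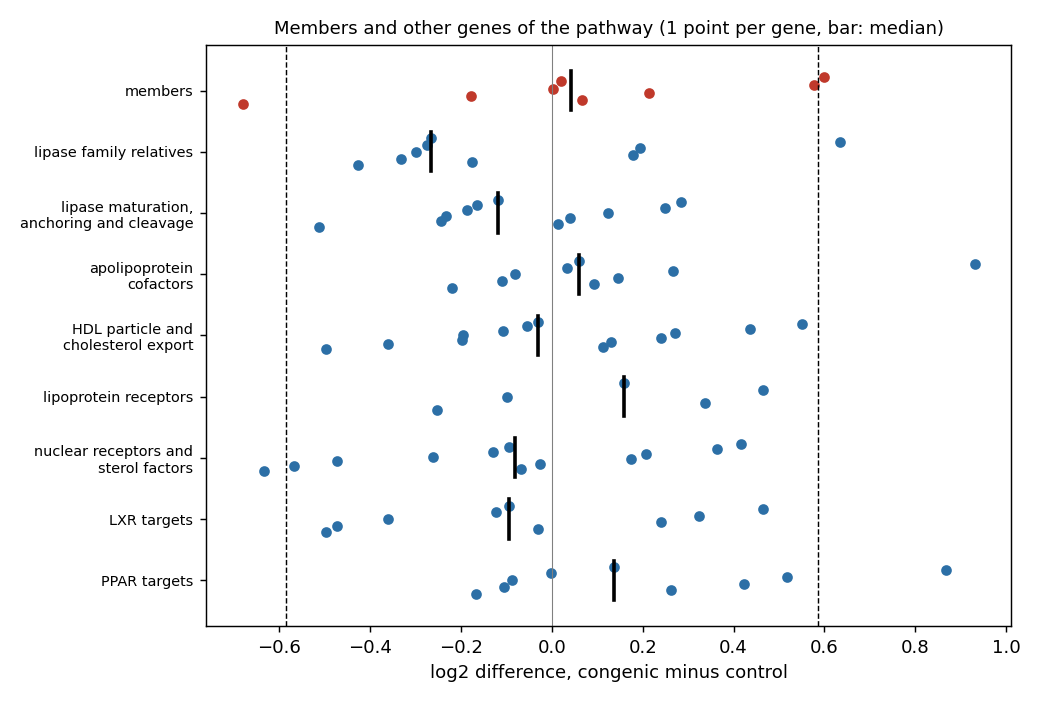
Log2 difference, congenic minus control, of the 8 members (red) and of the genes in 8 pathway lists (blue), 1 point per gene by its brightest probe set, with bars at the medians and dashed lines at 1.5-fold. Most points of every list lie between the lines, and those outside are Apoe, Fgf21, Lipe and Ppara among the listed genes and Lpl and Angptl8 among the members.

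Markers of several cell types also differed between the arrays, and their part in the values of the members was not tested. For scale, 8.78% of all genes were higher and 8.06% lower by 1.5-fold or more. Of 12 macrophage and Kupffer cell markers, 7 were higher by 1.5-fold or more and 0 lower, their summed intensity was 26218 in congenic liver and 17984 in control liver, a ratio of 1.46, and none was at the repeated low value. Their median difference was 0.81, with Adgre1, the F4/80 antigen, at 1543 against 841. Of 5 markers of lipid-laden macrophages, 0 were higher and 1 was lower by 1.5-fold or more, Gpnmb at 279 against 649. The sums were 2923 and 2699. The median difference of this list was 0.30, with Cd9 at 0.48, Trem2 at 0.37, Lgals3 at 0.30 and Itgax at 0.21. Of 8 neutrophil markers 7 were higher, with sums of 4157 and 1266. Of 6 stellate cell markers 4 were higher and 0 lower by 1.5-fold or more, with sums of 2265 and 1167. Most of both stellate sums came from 1 gene, Rgs5, at 1616 against 732, and Des stood at 32.9 against 37.2. The 6 endothelial markers summed to 3111 and 2807, with 0 higher and 1 lower by 1.5-fold or more (Lyve1, 467 against 733). Their median difference was 0.33, with Cdh5 at 0.53, Kdr at 0.51, Stab2 at 0.36, Pecam1 at 0.31 and Clec4g at 0.18. Hepatocyte markers were nearly equal, with none of 5 past 1.5-fold, sums of 49201 and 48113, and albumin (Alb) at 14121 against 12910.

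Lists for other tissues held markers on either side of the median intensity of all probe sets, 19.5. For adipocytes, 4 of 6 listed markers had a probe set, 0 were higher and 1 was lower by 1.5-fold. Their sums were 59 and 76.35, and 2 of the 4 had a mean at or above that median. Adiponectin (Adipoq) was at 24.1 and 21.3 and leptin (Lep) at 1.39 and 1. Cidec was at 28.4 and 36.3, and Retn, the lower one, at 5.17 and 17.7. For skeletal and cardiac muscle, which make much lipoprotein lipase, 6 markers summed to 159 and 175, 0 higher and 1 lower by 1.5-fold. The lower one was Tnnt2, dim at 4.03 and 10.8. The actin gene Acta1 was at 83.7 and 97 and myoglobin (Mb) at 3.83 and 1, and 2 of the 6 were at or above that median. The 3 pancreatic acinar markers summed to 327 and 302, with Cela1 at 224 and 216, Prss2 at 100.1 and 85.3 and Cpa1 at 2.41 and 1, none of them past 1.5-fold. The 4 steroidogenic markers summed to 39.9 and 48.3, with 1 higher (Cyp11a1, dim at 5.27 and 1.13) and 0 lower.

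**Figure D4:**
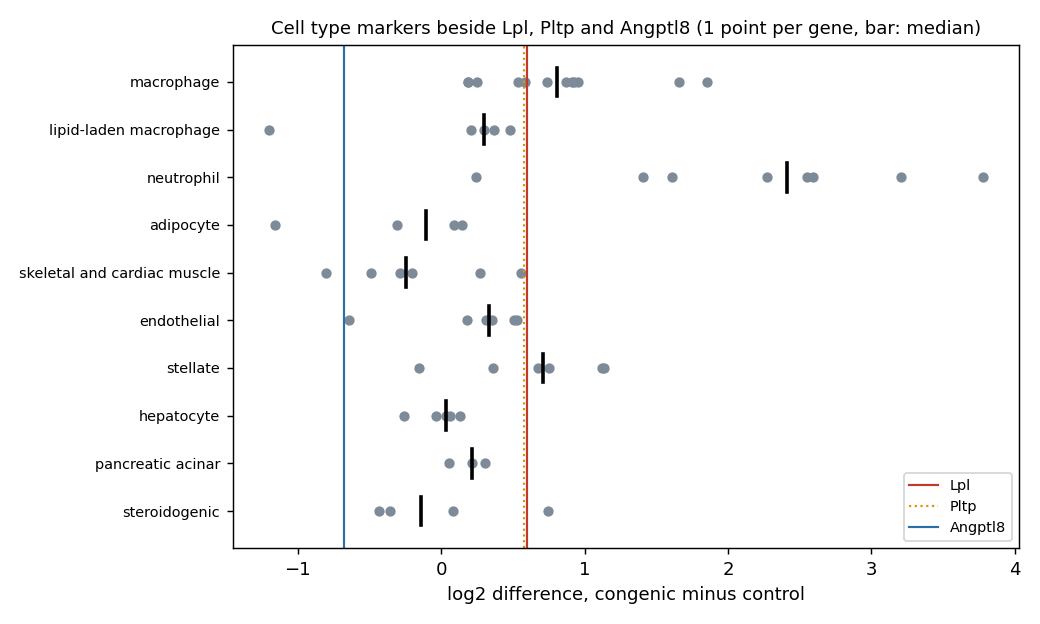
Log2 difference, congenic minus control, of marker genes of 10 cell types, 1 grey point per gene with a black bar at the median, beside lines at the differences of Lpl, Pltp and Angptl8. The macrophage median of 0.81 lies to the right of Lpl (0.60) and Pltp (0.58), and the hepatocyte median of 0.03 lies close to 0.

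The arrays themselves were alike in their overall values. Median intensities were 19.3 in congenic liver and 19.7 in control liver, and actin control probe sets at the 3' end were 1.68 and 1.65 times as bright as those at the 5' end, with 1.25 and 1.23 for Gapdh. The 18 hybridisation control probe sets had a mean log2 ratio of -0.09. A pattern over 2 arrays has only a sign and a size, so no gene is named as similar to a member.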

How the data were processed

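The table holds 1 linear intensity per array for 45101 probe sets, as deposited by the authors. The sources used here do not give how they summarised and scaled these intensities, and RNA labelling followed the Affymetrix protocol from 8 µg of total RNA, per the labels' protocols. Of 45037 probe sets that were no controls, 34945 had 1 gene name in the platform annotation, 932 several and 9160 none. Intensities were used without rescaling, with a pseudocount of 5, the rounded 20th percentile of all values. Genes and promoters were computed with Python 3.11.15, and the loess trend with statsmodels 0.14.6 and a span of 0.3. The members and gene lists were chosen with earlier results of these data known. Every member is named with every probe set, and of each pathway list the genes past 1.5-fold and the 2 highest and 2 lowest at or above the median level. The procedure was tested on simulated data with changes well beyond 1.5-fold, little noise and no pseudocount. That test does not bear on the 1.5-fold counts given here. With 1 array per group no comparison has a test, and the number of arrays limits the precision.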

Additional observations from a re-analysis of the deposited data

How the results depend on the processing

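No paired analysis was possible because each group holds 1 array. The count of members higher by 1.5-fold or more was 1, and became 2 with median centring or with scaling to the hybridisation controls (Lpl and Pltp; the latter scaling was chosen after seeing the data and moved the median of all genes from 0.03 to 0.11), 3 with plain _at probe sets only (Lpl, Pltp and Angptl4, over 7 genes) and 0 at 2-fold. With the mean over all probe sets of a gene it stayed at 1, but that gene was Pltp (0.70), since Lpl stood at 0.46. The count of lower members was 1, Angptl8, and 0 at 2-fold. Pseudocounts of 1, 20 or none, quantile normalization and removal of a loess trend left both counts at 1. The median difference of the members lay between 0.03 and 0.15. Over the alternatives Lpl lay between 0.46 and 0.69, Pltp between 0.57 and 0.83 and Angptl8 between -0.71 and -0.59. Scarb1 (-0.01 to 0.10) and Abca1 (-0.21 to 0.11) took either sign. A move was judged against the SD of 0.34 between probe sets of a gene, since there are no replicates. That SD leaves out probe sets below the median of both arrays. By this measure 70 of 71 values of genes stayed, the exception being Angptl4 at 0.62 by its dim plain _at probe set, as did 117 of 119 values of probe sets, the exceptions being the dimmest Lipg probe set with a pseudocount of 1 (1.11) or none (1.73). All alternatives use the same 2 arrays, so values that stayed do not show that other mice would give them. A value that stayed could still fall short of 1.5-fold, as Lpl did at 0.46, or change sign, as Scarb1 and Abca1 did. Low signal limits the 2 probe sets below the median of both arrays, 1 of Lipg and 1 of Angptl4.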
